A study of Saccharomyces cerevisiae with 30 samples.

Results

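The genes described here encode the nuclear pore complex of budding yeast: 32 genes for the nucleoporins, for the export factors GLE1 and GLE2 that work at the pore, and for the basket filaments. They were chosen by gene name from a fixed list, were all found among the 5656 genes with 1 unambiguous probe set name on the array, and 31 of them passed a filter on dim genes that kept 4242 genes for testing. RNA was measured on 30 Affymetrix Yeast S98 arrays in 12 groups, 4 strains each untreated and at 15 min and 60 min after ultraviolet light (100 J/m2 at 254 nm). All strains were BY4742, a haploid of mating type alpha, with the chromosomal RAD7 gene deleted and a HIS3 plasmid in its place, and all were grown at 30°C to late log phase in medium lacking histidine. In the pRAD7 strain the plasmid pRS313 carried RAD7, a subunit of the ubiquitin ligase of global genome repair, and in the psocs strain it carried RAD7 altered in its SOCS box. The pRAD7 rad23Δ and psocs rad23Δ strains also had RAD23, the partner of the damage recognition protein Rad4, replaced by URA3. There were 3 arrays in each group with RAD23 and 2 in each group without it. The labels number the replicates as biological without saying that each was its own culture. The p-values therefore cover the scatter among these arrays, which may be technical.

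The nuclear pore complex is the channel through the nuclear envelope for proteins going in and for RNA and ribosome subunits going out. A coat of outer and inner rings is held in the membrane by transmembrane nucleoporins and carries nucleoporins rich in phenylalanine-glycine (FG) repeats, which line the channel and bind the transport receptors. Filaments on the cytoplasmic side take part in the last step of mRNA export, and the basket on the nuclear side is built on the long coiled-coil proteins Mlp1 and Mlp2. The members are taken below in the order outer ring, inner ring, membrane ring, central channel, other FG nucleoporins, cytoplasmic side and basket.

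All values are MAS 5.0 signals centred on the median of their array, so a change is a change relative to the median probe set and the total RNA per cell was not measured. Changes are log2 differences from 1 limma fit over all 30 arrays, given ± SE, and a gene is called where the Benjamini-Hochberg adjusted p over 4242 genes is below 0.05. RAD23 and URA3 followed the labels. RAD23 read between 605 and 1572 where it was present and between 1.26 and 4.40 where it was deleted, and URA3 read 0.762 to 9.78 and 241 to 614 in the same order. RAD7 read 242 to 1167 in the pRAD7 strains and 17.4 to 54.2 in the psocs strains, where it stayed below the signal of 92.3 that served as filter on the mean of a gene. The psocs label gives an altered SOCS box and no lower level, so the level of RAD7 RNA differed between the plasmids as well as its sequence. The cause was not tested. The medians of 4 genes of alpha cells were between 1998 and 10004, and those of 7 genes of a cells between 3.20 and 107. At 60 min the uncentred median log2 signal was 7.12 to 7.28 on the 6 arrays with RAD23 and 6.82 to 6.96 on the 4 arrays without it, so that at this time the centring itself moves every comparison between them. The counts over all members at 60 min, after UV and without against with RAD23, are therefore also given for the values as deposited. Readings on single arrays and their overlap, the length classes of all genes and the transport genes are given after centring unless stated. On replicate 1 of psocs at 60 min the log2 ratio of the 5-prime to the 3-prime TBP control was -3.27, apart from the other 29 arrays, of which replicate 1 of psocs rad23Δ at 60 min was the lowest at -2.40.

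After UV most nuclear pore genes were lower by 60 min, and few by 15 min. At 15 min 7 members were lower and 2 higher in pRAD7, where 14.2% of all tested genes were lower and 23.2% higher. In psocs 7 members were lower and 0 higher, against 12.3% and 21.5% of all genes. The count of members lower was 2 in pRAD7 rad23Δ and 3 in psocs rad23Δ, with 1 and 0 higher, against 5.92% and 6.67% of all genes lower and 8.84% and 10.2% higher. MLP2, the smaller of the basket filament genes, was the only member lower in all 4 strains at 15 min, by 1.28 ± 0.17 on the log2 scale in pRAD7 (adjusted p = 3.39e-06). NUP100, an FG nucleoporin with GLFG repeats, changed by -0.82 ± 0.17 and -0.84 ± 0.17 in pRAD7 and psocs, and NUP1, an FG nucleoporin of the nuclear side, by -0.68 ± 0.15 and -0.43 ± 0.15. The members higher at 15 min were NUP188 and ASM4 of the inner ring in pRAD7, by 0.41 ± 0.12 and 0.46 ± 0.15, and NSP1 of the central channel in pRAD7 rad23Δ, by 0.50 ± 0.15. With the values as deposited the members lower at 15 min became 12 in pRAD7, 10 in psocs, 11 in pRAD7 rad23Δ and 5 in psocs rad23Δ. The calls on NUP188, ASM4 and NSP1 were lost, with 0 members higher in all 4 strains. Of all genes 19.5%, 16.3%, 11.1% and 9.85% were then lower, and 16.7%, 16.7%, 4.53% and 5.19% higher. Quantile normalization left 2 members higher in pRAD7 and 0 in pRAD7 rad23Δ, beside 17.6% and 5.3% of all genes. Higher calls made up 62.1% of all calls in pRAD7 after centring, 46.2% as deposited and 50.1% after quantile normalization. The same shares were 63.6%, 50.5% and 52.8% in psocs, 59.9%, 29% and 42.4% in pRAD7 rad23Δ, and 60.5%, 34.5% and 46.9% in psocs rad23Δ.

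By 60 min 21 members were lower and 1 was higher in pRAD7, and 24 were lower and 1 higher in psocs. Of all genes 36.1% were lower and 28.7% higher in pRAD7, and 34% and 30.8% in psocs. The median log2 change of the members was -0.59 in pRAD7 and -0.60 in psocs, beside -0.11 and -0.06 over all tested genes. In the deletion strains 22 members were lower and 1 higher with pRAD7, and 21 were lower and 2 higher with psocs, against 28.2% and 28.8% of all genes lower and 32.6% and 31.2% higher. The median member changed by -0.86 in both deletion strains, where the median of all genes was 0.08 and 0.04. The 4 comparisons use different arrays for each strain. With the values as deposited 17 members were lower and 4 higher in pRAD7 and 19 and 4 in psocs, while the share of all calls that were higher went from 44.3% to 60.3% and from 47.6% to 59.3%. Of all genes 25.9% were then lower and 39.3% higher in pRAD7, and 26.5% and 38.7% in psocs. In the deletion strains the deposited values gave 23 members lower and 0 higher with pRAD7, and 23 lower and 1 higher with psocs, with higher calls at 44.7% and 46.3% of all calls in place of 53.6% and 52%. Of all genes 33.5% and 32.7% were then lower, and 27.1% and 28.3% higher.

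**Figure D1:**
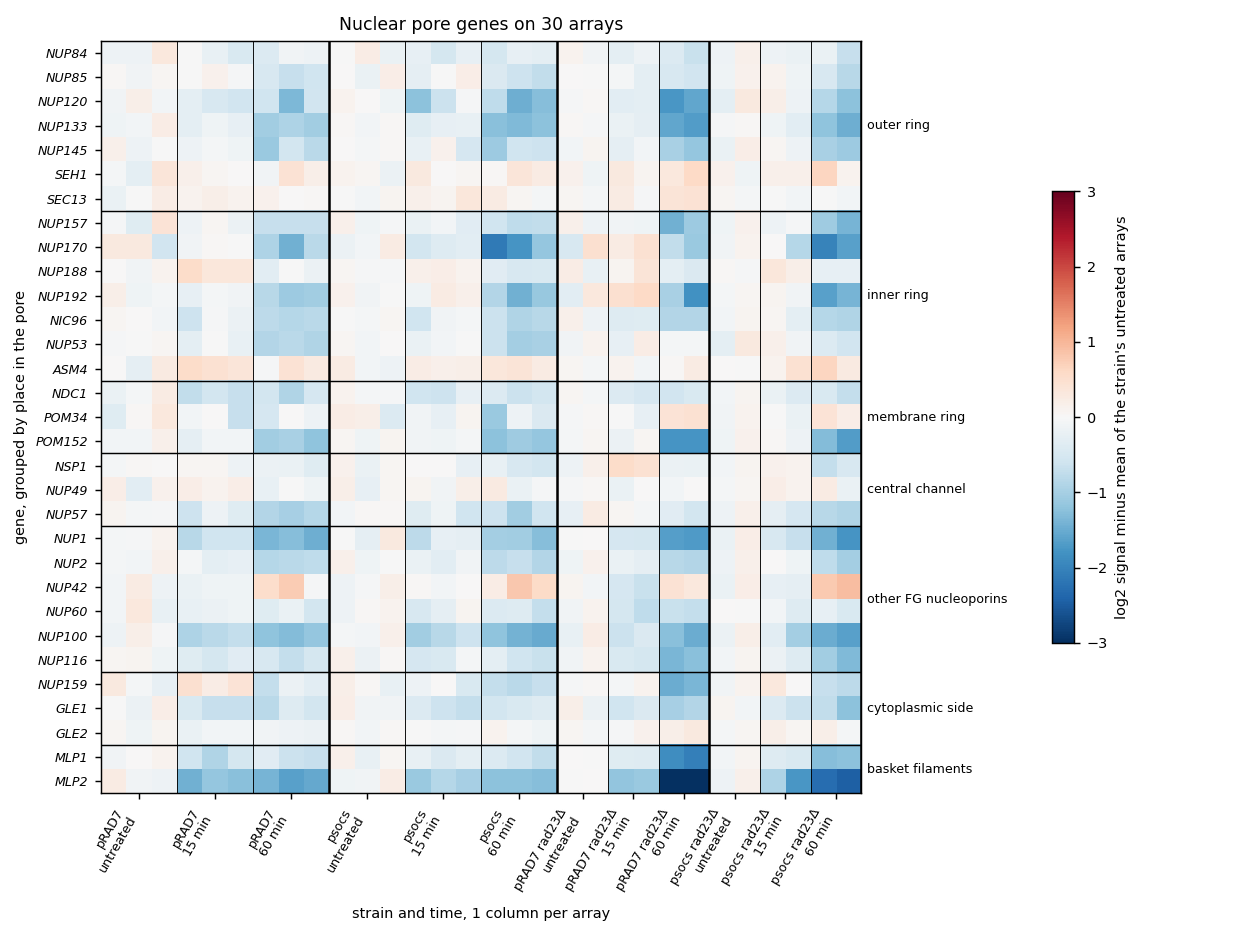
Log2 signal of the 31 tested nuclear pore genes (rows, grouped by place in the pore) on each of 30 arrays (columns, by strain and time), minus the mean of the untreated arrays of the same strain. Blue is lower and red higher, and the scale ends at 3 on either side, which the MLP2 cells of pRAD7 rad23Δ at 60 min exceed. Most rows turn blue at 60 min in all 4 strains, NUP42 turns red, and the MLP1 and MLP2 rows are darkest in the deletion strains.

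In pRAD7 the largest fall at 60 min was that of MLP2, whose signal was 397, 310 and 303 on the untreated arrays and 127, 108 and 114 at 60 min. NUP1 went from 766, 782 and 853 to 311, 330 and 289. The groups do not overlap for either gene, and the changes were -1.52 ± 0.17 (adjusted p = 4.9e-08) and -1.37 ± 0.15 (adjusted p = 7.59e-08). NUP100 went from 357, 446 and 385 to 172, 161 and 178, a change of -1.21 ± 0.17 (adjusted p = 1.12e-06). POM152, a transmembrane nucleoporin of the membrane ring, went from 632, 635 and 741 to 325, 340 and 291, a change of -1.07 ± 0.12 (adjusted p = 6.23e-08). In each of these genes every array at 60 min read below every untreated array of the strain. The member that rose was NUP42, an FG nucleoporin of the cytoplasmic side that serves mRNA export. Its signal was 106, 131 and 99.8 untreated and 162, 190 and 108 at 60 min, so the groups overlapped, and the change was 0.42 ± 0.17 (adjusted p = 0.0392). The call on NUP42 was lost when any of replicates 1 and 3 of the untreated group or replicates 1 and 2 of the 60 min group was left out, with changes between 0.25 and 0.65 over the 6 such fits. NUP42 was also called higher in psocs, by 0.53, and in psocs rad23Δ, by 0.86, and its change in pRAD7 rad23Δ was 0.38, short of the threshold.

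By place in the pore, 4 of 7 outer ring genes and 5 of 7 inner ring genes were lower at 60 min in pRAD7. The outer ring genes were NUP85, NUP120, NUP133 and NUP145, with changes from -1.01 (NUP133) to -0.59 (NUP85). NUP84, SEH1 and SEC13 of the same ring were not called, at -0.22, 0.18 and 0.06. In the inner ring NUP170, NUP192, NUP53, NIC96 and NUP157 were lower, from -1.06 to -0.70, and NUP188 and ASM4 were not called, at -0.17 and 0.22. In the membrane ring POM152 and NDC1, the latter shared with the spindle pole body, were lower and POM34 was at -0.22. Of the 3 genes of the central channel, NUP57 was lower by 0.91 on the log2 scale, and NSP1 and NUP49 were at -0.25 and -0.12. The other NUP49 probe sets above the filter gave 0.14 and 0.29, so its direction depends on the probe set. Of the 6 other FG nucleoporins, 5 were lower and NUP42 was higher. GLE1 and NUP159 on the cytoplasmic side were lower, by -0.58 and -0.40, and GLE2 was at -0.14. The call on NUP159 was lost without replicate 1 of either group, with changes from -0.52 to -0.25 over the 6 fits that left out 1 array, and that on NUP60, an FG nucleoporin of the basket, was lost without replicate 2 of the untreated group or replicate 1 or 3 of the 60 min group (-0.48 to -0.21). NUP82, which anchors NUP159 in the pore, was the member below the filter, with group means between 51.4 and 117, and is not tested.

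The comparison of strains with and without RAD23 asks whether levels at a given time depend on RAD23. In untreated cells 0 members were called lower and 0 higher in the rad23Δ strains, averaging over both plasmids, where 3.23% of all genes were lower and 6.34% higher by the limma fit. An unadjusted p below 0.05 was found for 6 members, and the smallest adjusted p was 0.0628, for NUP42 at 0.41 ± 0.14. At 15 min 0 members were lower and 2 were higher, NDC1 by 0.43 ± 0.11 and NSP1 by 0.35 ± 0.10, against 1.93% and 2.76% of all genes. As deposited, the call on NDC1 was left, beside 1.84% of all genes higher. Quantile normalization and a fit on only the groups compared each called 0 members higher, beside 1.51% and 0.259% of all genes. Higher calls made up 46.2% of all calls as deposited and 47.8% after quantile normalization, in place of 58.8%.

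At 60 min the nuclear pore genes differed in both directions between the strains. Averaged over both plasmids, 10 of the 31 were lower and 7 higher without RAD23, where 17.7% of all tested genes were lower and 36.9% higher. The median member differed by -0.09 and the median gene by 0.17. The 10 lower members were MLP2, MLP1, GLE1, NUP159, NUP192, NUP84, NUP157, NUP116, POM152 and NUP133, from -1.53 to -0.22. The 7 higher ones were POM34, NUP42, NUP53, SEC13, NUP85, NDC1 and GLE2, from 0.76 to 0.26. All 4 deletion arrays read below all 6 arrays with RAD23 in 7 members, NUP84, NUP157, NUP116, NUP159, GLE1, MLP1 and MLP2, as they did in 11.8% of all tested genes. They read above all 6 in 2 members, POM34 and NUP42, as in 24.8% of all genes. These readings are after centring.

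The smaller differences among the higher members changed direction with the scaling. With the values as deposited, 17 members were lower and 0 higher, against 37.2% of all genes lower and 16.4% higher, and the median of all genes moved from 0.17 to -0.17. The share of all calls that were higher was 67.6% after centring, 30.6% as deposited and 50.1% after quantile normalization, which left 11 members lower and 3 higher. Quantile normalization called 24.4% of all genes lower and 24.5% higher. The 3 still higher after quantile normalization were POM34, NUP42 and NUP53. SEC13, NUP85, NDC1 and GLE2 changed sign in the deposited values, and the 3 named before were not called there. The 10 lower members, led by MLP2, MLP1, GLE1 and NUP159, were called lower under all of these scalings.

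The basket filament genes showed the largest differences. At 60 min MLP2 read 127, 108 and 114 in pRAD7 and 121, 121 and 117 in psocs. It read 30.3 and 25.3 in pRAD7 rad23Δ and 63.6 and 57.1 in psocs rad23Δ. Every deletion array was below every array with RAD23, and the pRAD7 rad23Δ arrays were the lowest. In untreated cells the same gene had read 303 to 397 in pRAD7, 261 to 332 in psocs, and 279 to 346 in the deletion strains. The difference at 60 min was -1.53 ± 0.13, a signal 2.88-fold lower (adjusted p = 3.06e-09). The 4 deletion arrays lay below the filter signal of 92.3, which MLP2 passed on its mean over all 30 arrays, so the size of the fold rests on dim signals. MLP1, its longer paralog, read 319, 261 and 251 in pRAD7 and 294, 262 and 232 in psocs at 60 min. The deletion arrays read 123 and 107 with pRAD7 and 185 and 189 with psocs, all below the RAD23 arrays. The difference was -0.87 ± 0.10, 1.83-fold lower (adjusted p = 2.67e-07). A second MLP1 probe set above the filter gave -0.66, and the 6 others were below it. In strains with RAD23 MLP1 changed by -0.56 and -0.57 from untreated to 60 min, and in the deletion strains by -1.96 with pRAD7 and -1.25 with psocs.

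**Figure D2:**
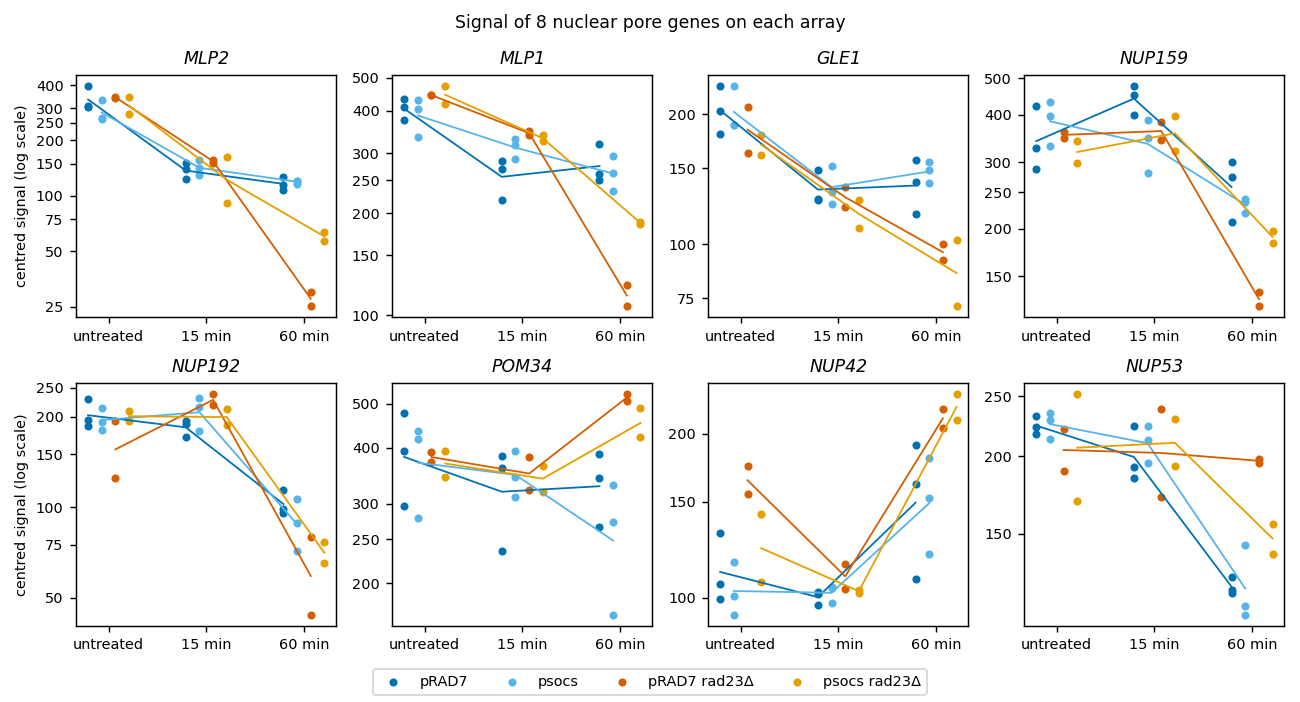
Centred signal (log scale) of 8 nuclear pore genes on every array, by time after UV. Each point is 1 array, the colour gives the strain, and the lines join group means of the log2 signals. MLP2, MLP1, GLE1 and NUP159 at 60 min lie lower in the deletion strains (orange and yellow) than in the strains with RAD23 (blue), and POM34 and NUP42 lie higher.

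On the cytoplasmic side GLE1, which activates the RNA helicase Dbp5 in mRNA export, read 117, 156 and 139 in pRAD7 and 139, 149 and 155 in psocs at 60 min. In the deletion strains it read 91.9 and 100 with pRAD7 and 102 and 72.1 with psocs. The readings of 91.9 and 72.1 lay below the filter signal of 92.3, and the others were near it. The groups do not overlap, and the difference was -0.65 ± 0.12 (adjusted p = 0.0001). NUP159, the FG nucleoporin that binds Dbp5, read 209, 300 and 274 in pRAD7 and 236, 221 and 239 in psocs. It read 125 and 136 in pRAD7 rad23Δ and 197 and 184 in psocs rad23Δ, again without overlap, a difference of -0.63 ± 0.12 (adjusted p = 0.00017). GLE2, which binds the FG nucleoporin Nup116, went the other way. GLE2 read 632, 609 and 603 in pRAD7, 695, 623 and 592 in psocs, 803 and 870 in pRAD7 rad23Δ and 732 and 622 in psocs rad23Δ. Its groups overlapped, the difference was 0.26 ± 0.08 (adjusted p = 0.00682), and without replicate 1 of psocs rad23Δ it was not called (0.21, adjusted p = 0.0556).

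In the membrane ring POM34 read 267, 387 and 342 in pRAD7 and 170, 331 and 273 in psocs at 60 min. The deletion arrays read 508 and 525 with pRAD7 and 488 and 421 with psocs, all above the RAD23 arrays after centring. As deposited the ranges overlapped, with 487 on replicate 2 of pRAD7. The deletion arrays then read 494 and 483 with pRAD7 and 461 and 425 with psocs. The difference was 0.76 ± 0.18 (adjusted p = 0.00109), 1.69-fold higher. NDC1 read 523, 408 and 536 in pRAD7, 565, 479 and 512 in psocs, 637 and 697 in pRAD7 rad23Δ and 602 and 509 in psocs rad23Δ. The groups of NDC1 overlapped in psocs, and its difference of 0.28 ± 0.11 (adjusted p = 0.0354) was not called in 5 of 10 fits that left out 1 array (0.21 to 0.34). Those arrays were replicate 2 of pRAD7, replicates 2 and 3 of psocs, replicate 2 of pRAD7 rad23Δ and replicate 1 of psocs rad23Δ. POM152, called lower by 0.38 ± 0.09, was the third gene of this ring.

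In the inner ring NUP192, which encodes a large scaffold protein, read 114, 95.5 and 98.7 in pRAD7 and 107, 71.3 and 88.5 in psocs at 60 min. It read 79.4 and 43.9 in pRAD7 rad23Δ and 65.2 and 76.3 in psocs rad23Δ. These readings all lay below the filter signal of 92.3, as did 71.3 and 88.5 in psocs. The groups overlapped by 1 psocs array, and the difference was -0.55 ± 0.15 (adjusted p = 0.00341). Without replicate 2 of pRAD7 rad23Δ the difference was -0.34 and not called (adjusted p = 0.062). NUP157 was lower by 0.43 ± 0.12, and its paralog NUP170 was not called, at -0.14. NUP170 was measured by a probe set whose probes can match more than 1 transcript, and the other probe set for it above the filter gave -0.35. NUP53, which links the inner ring to the membrane, read 122, 128 and 120 in pRAD7 and 144, 111 and 114 in psocs. It read 195 and 198 in pRAD7 rad23Δ and 156 and 139 in psocs rad23Δ, and the difference was 0.47 ± 0.12 (adjusted p = 0.00161). Only 1 psocs array overlapped the range of the deletion arrays. NUP53 was the member whose fall after UV was not called in pRAD7 rad23Δ (-0.06) while it was called in pRAD7 (-0.86), psocs (-0.88) and psocs rad23Δ (-0.49).

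In the outer ring NUP84 was lower by 0.47 ± 0.13 (adjusted p = 0.00422) and NUP133 by 0.22 ± 0.08 (adjusted p = 0.0321). The NUP133 call was lost without replicate 2 of pRAD7, replicate 3 of psocs, replicate 2 of pRAD7 rad23Δ or replicate 2 of psocs rad23Δ, and its difference ranged from -0.28 to -0.16 over the 10 fits. SEC13, which also serves in the COPII vesicle coat, read 1626, 1486 and 1524 in pRAD7 and 1851, 1626 and 1492 in psocs at 60 min. It read 2135 and 2209 in pRAD7 rad23Δ and 1826 and 1731 in psocs rad23Δ. The pRAD7 arrays were separate and the psocs arrays overlapped, and the difference over both was 0.30 ± 0.09 (adjusted p = 0.00746). NUP85 read 334, 289 and 311 in pRAD7, 377, 328 and 301 in psocs, 456 and 432 in pRAD7 rad23Δ and 392 and 311 in psocs rad23Δ. Its difference of 0.29 ± 0.11 (adjusted p = 0.0288) was not called in 5 of 10 fits that left out 1 array (0.21 to 0.37). These left out replicate 2 of pRAD7, replicate 3 of psocs, replicate 1 or 2 of pRAD7 rad23Δ or replicate 1 of psocs rad23Δ. The other NUP85 probe sets above the filter gave -0.24 and -0.23, so its direction depends on the probe set. NUP120, NUP145 and SEH1 were not called, at -0.45, -0.30 and 0.17.

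Among the FG nucleoporins NUP42 read 162, 190 and 108 in pRAD7 and 121, 181 and 152 in psocs at 60 min. It read 222 and 205 in pRAD7 rad23Δ and 212 and 236 in psocs rad23Δ, all above the RAD23 arrays after centring. The difference was 0.55 ± 0.14 (adjusted p = 0.00191), beside 0.41 in untreated cells. NUP116, a GLFG nucleoporin, was lower by 0.41 ± 0.11, and its paralog NUP100 was at -0.12. The other genes of this group, NUP1, NUP2 and NUP60, were between -0.16 and 0.22 and not called, and so were NSP1, NUP49 and NUP57 of the central channel, between -0.06 and 0.14. The other NUP49 probe sets above the filter gave 0.46 and 0.14.

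Within each plasmid the differences were in the same direction for the leading genes but not of one size. With pRAD7, 7 members were lower and 7 higher at 60 min without RAD23, against 14.5% and 33.3% of all genes. With psocs, 6 were lower and 2 higher, against 8.98% and 17.7%. The psocs count was between 1 and 4 in the fits that left out any 1 of its arrays. MLP1, MLP2 and GLE1 were lower with both plasmids, and POM34 and NUP42 were higher with both. MLP2 differed by -2.07 ± 0.18 with pRAD7 and by -0.99 ± 0.18 with psocs, MLP1 by -1.27 ± 0.15 and -0.48 ± 0.15, and NUP159 by -0.98 and -0.28, the last not called. With the values as deposited 17 members were lower with pRAD7 and 13 with psocs and 0 were higher, and higher calls made up 30.5% and 23.3% of all calls (51.5% and 44.9% after quantile normalization) in place of 69.6% and 66.3%. Of all genes 32.1% and 22.5% were lower as deposited, and 14% and 6.86% higher.

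The test of the plasmid difference itself, added after these values were seen, called 0 members in either direction, against 0.495% and 0.212% of all genes. It gave 1.08 ± 0.26 for MLP2 (adjusted p = 0.0561) and 0.78 ± 0.20 for MLP1 (adjusted p = 0.0761), and 6 members had an unadjusted p below 0.05. The direct comparison of the 2 plasmids at 60 min called 0 members where RAD23 was intact, against 0.0236% of genes lower and 0% higher, and 2 had an unadjusted p below 0.05. Between psocs rad23Δ and pRAD7 rad23Δ 0 members were lower and 2 higher, against 1.79% and 1.11% of all genes. The 2 were MLP2, higher by 1.12 ± 0.20 (adjusted p = 0.00319), and MLP1, higher by 0.71 ± 0.16 (adjusted p = 0.0153), in the strain with psocs, where the RAD7 signal was also lower. Long genes in general were higher there, with a median of 0.28 and 6.76% higher among all genes of 3000 bases or more. With a trend of signal with length removed, 0 members were higher, beside 0.448% of all genes. A fit on only the groups compared left 1 member higher, beside 3.25%.

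**Figure D3:**
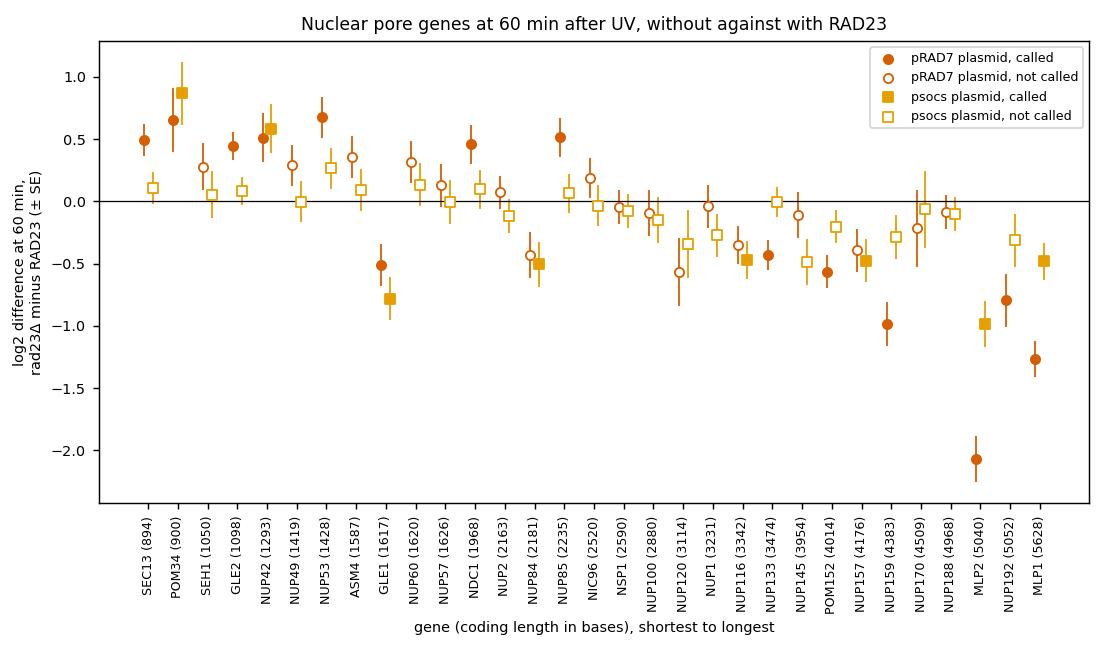
Log2 difference at 60 min between the rad23Δ strain and the strain with RAD23 (vertical, ± SE from the limma fit) for the 31 tested nuclear pore genes, ordered from shortest to longest coding length. Circles are the pRAD7 plasmid and squares psocs, and filled points have an adjusted p below 0.05. GLE1 is the one gene under 2000 bases with filled points below 0, and MLP2 lies lowest at -2.07 with pRAD7.

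The response from untreated to 60 min was compared directly between strains with and without RAD23, averaging over both plasmids. The change of 8 members was more negative without RAD23 and that of 2 more positive, against 14.8% and 23.6% of all genes. The 8 were MLP2 (-1.61 ± 0.19), MLP1 (-1.04 ± 0.14), NUP116, NUP157, NUP159, POM152, GLE1 and NUP133 (-0.34), and the 2 were POM34 (0.76 ± 0.25) and NUP53 (0.60 ± 0.16). For NUP116 the change at 60 min was -0.57 and -0.52 in the strains with RAD23 and -1.31 and -1.18 without it. NUP84, NUP192 and NUP42, called at 60 min, were not called in this comparison, at -0.20, -0.39 and 0.14. Nor were SEC13, NUP85, NDC1 and GLE2. In untreated cells the mean log2 level of NUP85 was 9.32 and 9.10 without RAD23 (pRAD7, psocs), against 8.87 and 8.98 with it. For NDC1 it was 9.90 and 9.70 against 9.57 and 9.55. For SEC13 it was 10.67 and 10.85 against 10.53 and 10.60, and for GLE2 9.48 and 9.33 against 9.40 and 9.34. None of these differences was called in untreated cells. The GLE1 call (adjusted p = 0.0422) was lost in 13 of 20 fits that left out 1 array. With the values as deposited 20 members were more negative and 0 more positive, the share of all calls that were higher went from 61.4% to 21.8% (42.2% after quantile normalization), and the median of all genes from 0.11 to -0.25. Of all genes 33.5% were more negative as deposited and 9.34% more positive.

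The differences at 60 min were graded by coding length, which runs here from start to stop codon with introns included. Of the 13 members of 3000 bases or more, all were below 0 in the strains without RAD23 and 8 were called lower, with a median of -0.41. Of all 370 tested genes of that length 81.4% were below 0 and 66.2% were called lower, with a median of -0.57. The 2 members under 1000 bases, SEC13 and POM34, were both higher, as were 54.2% of all genes in that class. Of the 10 members from 1000 to under 2000 bases 1 was lower, GLE1, and 4 were higher, against 13.4% and 34.1% of all genes. Of the 6 members from 2000 to under 3000 bases 1 was lower, NUP84, and 1 higher, NUP85, against 32.7% and 12.8%. The higher side depended on the scaling. As deposited, 0 members under 2000 bases were higher in place of 6, beside 16.4% of all genes of any length. Of the members of 3000 bases or more, 12 were then lower in place of 8, beside 37.2% of all genes. Across genes, the Pearson correlation of the difference with log2 length was -0.75 over the 31 members and -0.51 over all 4242 genes at 60 min. In untreated cells it was -0.13 and -0.003. Genes measured on the same arrays are not independent, so these are descriptions.

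**Figure D4:**
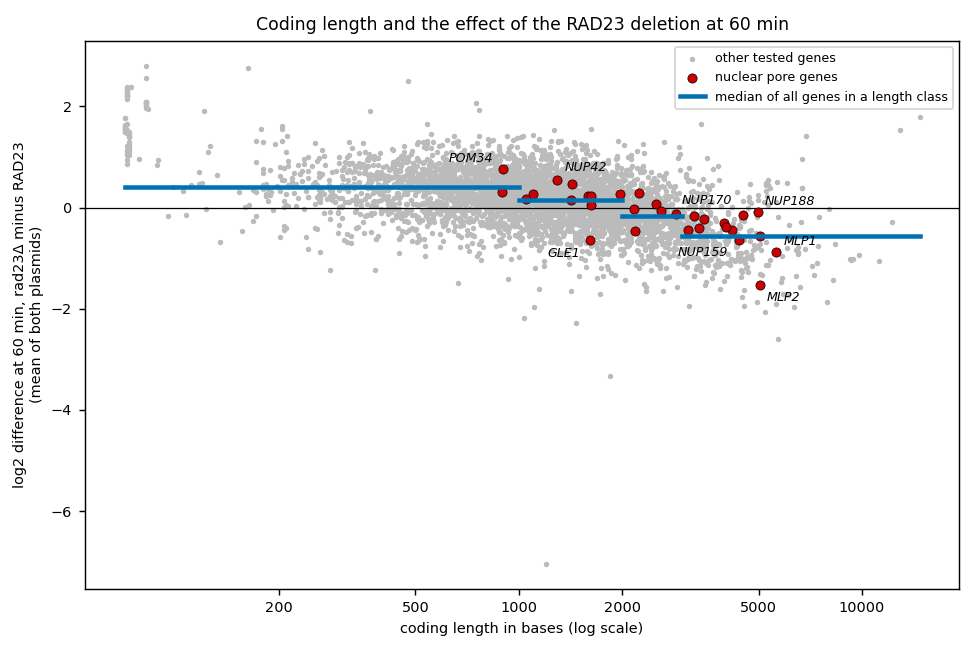
Coding length (horizontal, log scale) against the log2 difference between rad23Δ and RAD23 strains at 60 min (mean of both plasmids) for all 4242 tested genes. Nuclear pore genes are red, blue bars are the medians of all genes in 4 length classes (0.40, 0.16, -0.17 and -0.57), and the lowest grey point is RAD23 itself. The nuclear pore genes slope down with length like the other genes, with GLE1 and MLP2 below the trend and NUP170 and NUP188 above it. As a group they lay above the trend. With it removed their median was 0.36, beside 0.20 over all genes.

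When a smooth trend of signal with length was taken from each array before the fit, 2 members were lower at 60 min without RAD23 and 20 higher, against 11.8% and 36.7% of all genes, whose median was then 0.20. The members still lower were MLP2, at -0.58 (adjusted p = 0.000523), and GLE1, at -0.53 (adjusted p = 0.000933). MLP1 was at 0.15, NUP159 at 0.21 and NUP116 at 0.22, none of them called, and NUP192, POM152, NUP133 and NUP157 were called higher, between 0.37 and 0.44. NUP188, one of the longest members, was the highest at 0.84. The same step left 8 members lower at 60 min against untreated in pRAD7 rad23Δ in place of 22, where 25% of all genes were lower, a share near that of the members. In psocs rad23Δ it left 11 in place of 21, beside 27.7% of all genes. In pRAD7 and psocs 17 members each were lower, beside 38.2% and 36.9% of all genes. In those strains with RAD23 the correlation with log2 length was -0.13 and -0.14 over all genes, against -0.47 and -0.35 in the deletion strains. Over the members it was -0.61 in pRAD7 and -0.66 in psocs, against -0.80 in pRAD7 rad23Δ and -0.77 in psocs rad23Δ. The fall of the members was thus graded by length with RAD23 as well as without it.

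On the single arrays the median log2 level of the 13 members of 3000 bases or more was 8.49 to 8.75 in untreated cells with RAD23 and 8.61 to 8.80 without it. At 60 min it was 7.53 to 8.03 on the 6 arrays with RAD23 and 7.29 to 7.52 on the 4 without, so the ranges were separate by a narrow margin. The median of the 12 members under 2000 bases was 8.32 to 8.67 and 8.51 to 8.62 untreated, and 7.98 to 8.46 with RAD23 against 8.41 to 8.73 without it at 60 min. The mean log2 ratio of 5-prime to 3-prime control probe sets at 60 min was -1.58 to -1.03 on the arrays with RAD23 and -1.70 to -1.17 on the others. With that ratio as a covariate 10 members were lower and 6 higher, and without replicate 1 of psocs 11 were lower and 7 higher, and 11 and 5 when replicate 1 of psocs rad23Δ was left out too. Of all genes 19.8% were lower and 37.1% higher with the ratio as a covariate. The array medians at 60 min were lower in the deletion strains before centring, and their part in the length pattern was not tested.

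**Figure D5:**
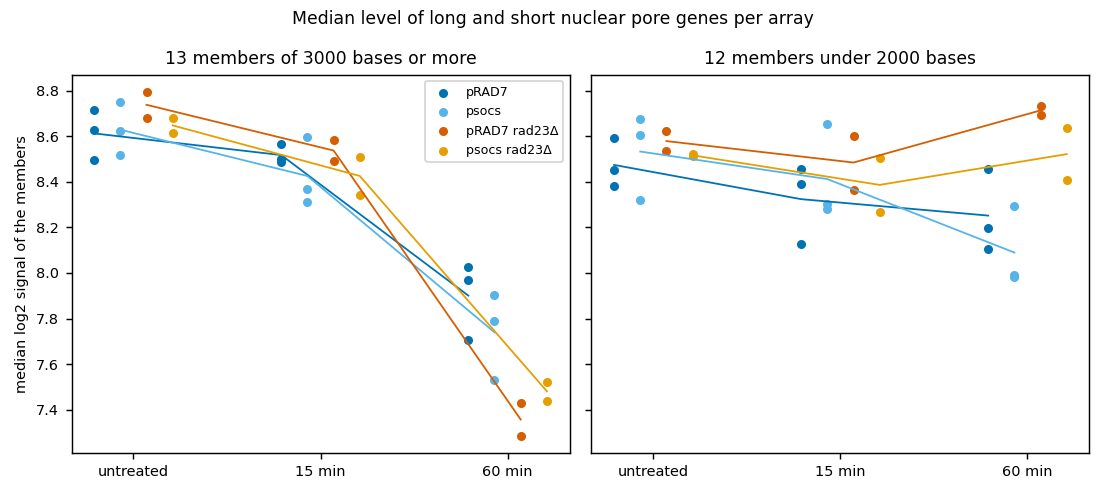
Median log2 signal of the nuclear pore genes of 3000 bases or more (left) and under 2000 bases (right) on each array, by time and strain, with lines through group means. At 60 min the long genes had fallen in every strain, to 7.29 to 7.52 without RAD23, while the short genes of the deletion strains were at 8.41 to 8.73.

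Other genes of nuclear transport and pore assembly, a list of 46 genes of which 43 were tested, held the transport receptors, the Ran cycle, mRNA export factors and assembly factors. At 60 min 7 of the 43 were lower and 18 higher without RAD23, with a median of 0.34, shares near the 17.7% and 36.9% over all genes. The lowest were KAP95, the karyopherin that carries importin alpha, at -1.20 ± 0.10, SAC3, the scaffold of the mRNA export complex at the pore, at -1.10 ± 0.12, SRC1 of the inner nuclear membrane at -0.71 and the karyopherin KAP120 at -0.65. The highest were MTR2, a subunit of the mRNA export receptor, at 1.17 ± 0.09, the mRNA-binding NPL3 at 0.99, NTF2, the import carrier of Ran, at 0.95, and the pore protein gene PER33 at 0.89. Of the 9 genes of 3000 bases or more 5 were lower, beside 66.2% of all genes of that length. Higher were 9 of the 16 under 1000 bases and 9 of the 12 from 1000 to under 2000 bases, beside 54.2% and 34.1% of all genes. After UV in pRAD7 19 of the 43 were lower at 60 min and 6 higher, beside 36.1% and 28.7% of all genes, led by the karyopherin KAP123 at -2.67 and by GSP2, a second Ran gene, at 3.08.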

How the data were processed

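The deposited values are intensities, linear MAS 5.0 signals that the authors made in Affymetrix Expression Console (version not given in the sources used here) and scaled to one trimmed mean per array, between 500.3 and 500.5. Values were raised to the 10th percentile (8.50), put on the log2 scale and centred on each array's median. Probe sets with 1 gene name were kept, 1 per gene (the brightest over all arrays), and 4242 of 5656 genes above the 25th percentile of mean signal were tested with limma 3.58.1 in R 4.3.3, with 1 mean per group, empirical Bayes and Benjamini-Hochberg adjustment, as the methods state no test for the arrays. The script was tested on simulated data. Coding lengths and current names came from the RefSeq R64 gene table, of which no coordinates were used. The length trend was a lowess curve (span 0.5) per array.

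The members, lists and tests were chosen with earlier results of these data known. Values on the arrays of the groups compared are given for the 8 called members with the largest difference at 60 min. They are also given for the 4 with the largest change after UV in pRAD7, and for members called against the majority in these comparisons. Up to 4 transport genes per direction are named. Alternatives were another filter, floor or normalization, the values as deposited, only the groups compared, a replicate block, the 5-prime to 3-prime ratio as covariate, the mean of all probe sets, and each array left out. A promoter motif search was not run. The number of arrays limits the precision, with a median SE of 0.12 (log2) for members at 60 min. Plots used Python 3.11.15 (matplotlib 3.10.9).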

Additional observations from a re-analysis of the deposited data

Results flagged for a closer look

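For 10 members the change from untreated to 60 min differed between strains without and with RAD23 by the limma test of that difference itself, and each value here is the difference of the 2 changes on the log2 scale. It was -1.61 for MLP2, -1.04 for MLP1, -0.70 for NUP116, -0.56 for NUP157, -0.53 for NUP159, -0.51 for POM152, -0.45 for GLE1 and -0.34 for NUP133. It was 0.60 for NUP53 and 0.76 for POM34. The 8 negative values came from 7 genes of 3000 bases or more and GLE1, and 58.6% of all tested genes of that length had a significantly negative value.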

How the results depend on the processing

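The calls on MLP2 and GLE1 at 60 min, without against with RAD23, held in all alternatives tried except the filter at the 50th percentile, which left both untested. Under the values as deposited the members lower were 12, 11 and 5 at 15 min in pRAD7, pRAD7 rad23Δ and psocs rad23Δ. Of all genes 19.5%, 11.1% and 9.85% were lower there. In the comparison of rad23Δ with RAD23 at 60 min the members lower were 17 with pRAD7, 13 with psocs and 17 over both, with 0 higher over both, and in the response difference 20. Of all genes 32.1%, 22.5% and 37.2% were lower in that comparison, and 33.5% in the response difference. GLE2, NDC1, NUP85 and SEC13 then turned to -0.075, -0.063, -0.050 and -0.040. Quantile normalization gave 11, 12 and 6 lower at 15 min in pRAD7, psocs and pRAD7 rad23Δ, 3 higher at 60 min over both plasmids, and SEC13 at -0.088. Of all genes 17.5%, 15.1% and 7.21% were lower at 15 min in those strains, and 24.5% were higher at 60 min over both plasmids. With the length trend removed the members lower were 4, 3, 1 and 1 at 15 min in pRAD7, psocs, pRAD7 rad23Δ and psocs rad23Δ, and 8 and 11 at 60 min in pRAD7 rad23Δ and psocs rad23Δ. Of all genes 13.1%, 11.3%, 5.26% and 6.39% were then lower at 15 min, and 25% and 27.7% at 60 min. At 60 min without against with RAD23 the members lower were 1 with pRAD7, 1 with psocs and 2 over both, beside 8.44%, 5.02% and 11.8% of all genes. The members higher were 20, 5 and 20, beside 32%, 16.1% and 36.7%. In the response difference 1 member was lower and 7 were higher, beside 8.46% and 21.4% of all genes. The following turned: MLP1 0.15, NUP116 0.22, NUP133 0.44, NUP157 0.37, NUP159 0.21, NUP192 0.39 and POM152 0.39 at 60 min, NUP159 0.017 after UV in pRAD7, and MLP1 0.026, NUP133 0.35, NUP157 0.29, NUP159 0.36 and POM152 0.30 in the response difference. The filter at the 50th percentile, which tests 22 members, left 4 lower at 15 min in psocs, 1 in pRAD7 rad23Δ and 4 at 60 min with pRAD7. Of all genes 9.23%, 4.14% and 11.2% were lower there. A fit on only the groups compared, with fewer arrays, left 4, 0 and 0 lower at 15 min in psocs, pRAD7 rad23Δ and psocs rad23Δ, and 2 at 60 min with psocs. Of all genes 9.85%, 0.118%, 0.896% and 6.36% were then lower. The 5-prime to 3-prime covariate left 1 lower at 15 min in psocs rad23Δ, beside 3.23% of all genes, and the mean of all probe sets put NUP85 at -0.027. Other causes were not tested.

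Leaving out 1 array at a time gave 4 to 8 members higher at 60 min over both plasmids, 1 to 4 lower with psocs, and 1 to 3, 4 to 7 and 1 to 3 lower at 15 min in pRAD7 rad23Δ, psocs and psocs rad23Δ. In the response difference the calls on NUP133 (5 of 20 fits), NUP159 (2), POM34 (2) and NUP157 (1) were also lost. The replicate numbers share only a number: 12 of 30 pairs of the same number within a strain correlated over 0.1 (-0.343 to 0.507). A replicate block gave 9 lower and 7 higher at 60 min over both plasmids, beside 17.8% and 37% of all genes. A replicate block within strain left 4 lower at 15 min in psocs, beside 12.9%.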
